A study of Homo sapiens with 16 samples.

Results

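The SOX genes encode transcription factors that share an HMG box, a DNA-binding domain also present in the testis-determining factor. The members described here were taken by symbol as SOX2, SOX4, SOX5, SOX6, SOX7, SOX8, SOX9, SOX11, SOX12 and SOX13. They are 10 of the 35993 gene symbols in a count table of 16 RNA-seq libraries, and all 10 were among the 21297 genes with enough reads to be tested. The libraries came from 4 established human lines of bladder carcinoma (TCCSUP, RT112, J82 and 253J), each cultured for 48 h either with vehicle (0.01% DMSO, the control) or with CM-1758, an inhibitor of histone deacetylases, at the half-maximal inhibitory concentration of that line. Every group had 2 libraries, labelled as independent biological replicates, so that there were 8 groups. All lines carried a wild-type genotype label. The lines 253J, J82 and RT112 were grown in DMEM and TCCSUP in EMEM, so that medium and line cannot be told apart between TCCSUP and the others. The question addressed was how the level of each SOX gene differed between the lines, and how it changed with CM-1758 in each of them.

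SOX proteins bend DNA at short AT-rich sites and act with partner factors, and their subgroups follow the sequence of the HMG box. SOXB1 proteins (SOX2 here) keep stem and neural progenitor cells undifferentiated, SOXC proteins (SOX4, SOX11 and SOX12) act in neuronal and epithelial progenitors and are often abundant in carcinomas, and SOXD proteins (SOX5, SOX6 and SOX13) lack an activation domain of their own. SOXE proteins (SOX8 and SOX9) direct cartilage, neural crest and gonad development, and the SOXF protein SOX7 acts in endothelium and endoderm. Histone deacetylases remove acetyl groups from histone tails, a modification found at active promoters, and their inhibitors raise and lower the transcripts of many genes.

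The control libraries held 27655401 to 32537104 counts and the CM-1758 libraries 22506431 to 31547585. Levels are given as raw counts or as CPM, the count scaled to a common library size, with libraries adjusted by the trimmed mean of M values (TMM). A gene is called higher or lower where edgeR's quasi-likelihood test gave a Benjamini-Hochberg adjusted p under 0.05 over all tested genes, and the larger changes are those with a log2 fold change beyond 2 and an adjusted p under 0.01. Of 16 urothelial and epithelial markers, 6, 5, 1 and 3 were at 0 counts in both control libraries of 253J, J82, RT112 and TCCSUP. In the same order, 7, 8, 15 and 10 of the 16 had a control mean of at least 1 CPM, so each line expressed part of the list. Among the markers at 0, UPK3A, a uroplakin of the differentiated bladder surface, was at 0 in every control library. UPK2 was at 0 in all but those of RT112.

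Most SOX changes that passed the test with CM-1758 were rises, and their number differed by line. Of the 10 members, 6 rose in RT112, 4 in J82, 3 in TCCSUP and 1 in 253J, against 27.4%, 24%, 32% and 28.8% of all tested genes. A fall passed the test for 1 member in 253J, where 22.4% of all genes fell. No member was called lower in J82, RT112 or TCCSUP (0 each, and 0 each by DESeq2), where 18.5%, 20.2% and 22.1% of all genes were. At an unadjusted p under 0.05, 1 member was lower in J82 (SOX12) and 0 in RT112 and in TCCSUP. The larger changes took in 4 members in RT112, 3 in J82 and 2 in TCCSUP, all higher, and 1 in 253J, which was lower, against 12.8%, 10.1%, 17.5% and 12.9% of all genes in either direction.

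Over the 40 combinations of member and line, 14 were higher, 1 was lower and 25 did not pass. The subgroups divided these as 3 of 4 higher for SOXB1, 4 of 12 higher and 1 lower for SOXC, 5 of 12 higher for SOXD, 2 of 8 higher for SOXE and 0 of 4 for SOXF. Of all tested genes, 24% to 32% were called higher and 18.5% to 22.4% lower, by line. The numbers higher for SOXC and SOXE were near that share. SOXB1 and SOXF are 1 gene each, counted in 4 lines, and no difference between subgroups was tested. The median log2 fold change of the members was highest in RT112 at 2.53, followed by TCCSUP at 0.50, J82 at 0.42 and 253J at -0.11, beside 0.12, 0.20, 0.047 and 0.10 over all tested genes. In RT112, 4 members had a group at 3 counts or fewer, and with such members set at the bound that 3 counts allow, the median there was 1.09. The other medians did not move with that step. Both CM-1758 libraries lay above both control libraries for 8 of 10 members in RT112, 6 in TCCSUP, 4 in J82 and 1 in 253J, and both lay below for 4 in 253J, 2 in J82, 2 in TCCSUP and 0 in RT112. Over all tested genes, the treated libraries lay above for 41.8% in RT112, 45.4% in TCCSUP, 34.8% in J82 and 40.9% in 253J, and below for 32.1% in 253J, 27.9% in J82, 33.1% in TCCSUP and 32.5% in RT112.

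**Figure D1:**
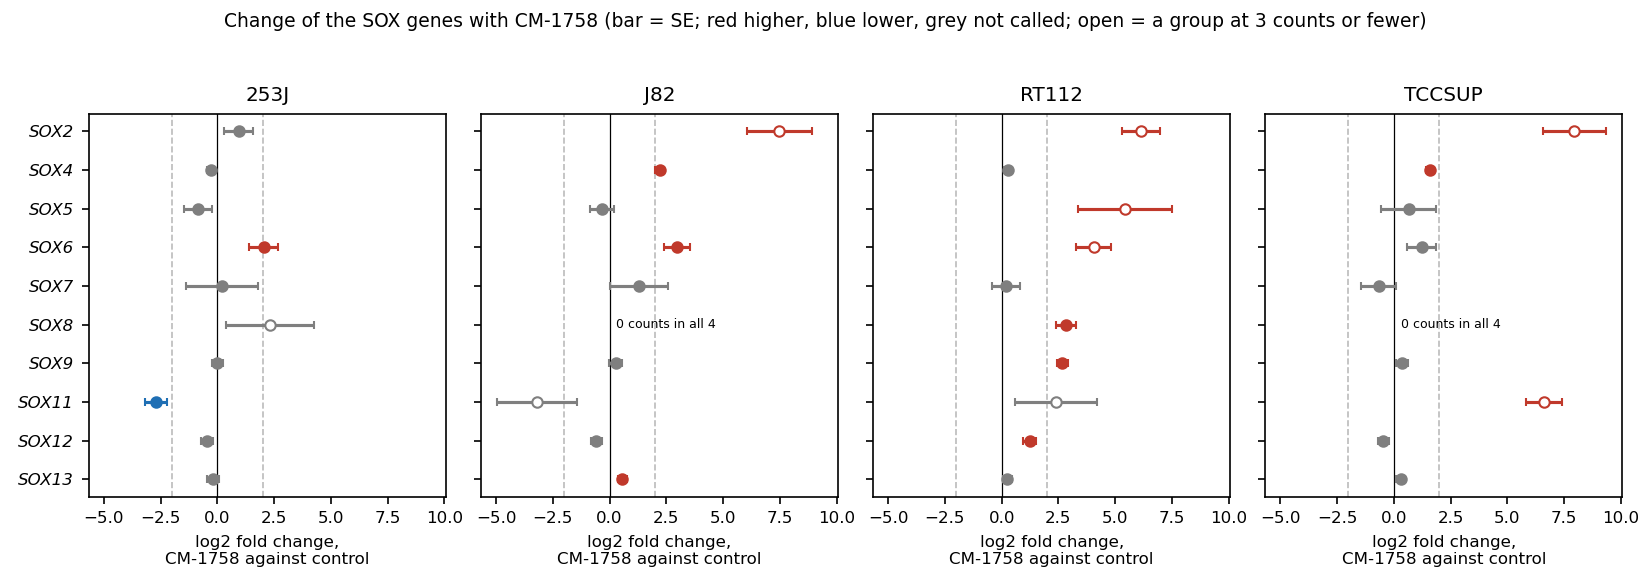
Log2 fold change (CM-1758 minus control, x axis) with its standard error for the 10 SOX members in each of the 4 lines, 2 libraries per group. Red marks members called higher, blue lower and grey those that did not pass, open symbols have a group at 3 counts or fewer, and dashed lines stand at the log2 limit of 2. RT112 holds 6 red members and 253J the 1 blue member, SOX11.

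Whether the change differed between lines was tested by an interaction of line and treatment. The dose was set for each line, so dose and line cannot be told apart in this test. It was called for 5 of the 10 members, against 51.9% of all tested genes. The 5 were SOX2 (adjusted p = 0.00241), SOX4 (4.57e-06), SOX9 (6.35e-05), SOX11 (2.41e-05) and SOX12 (0.00358), all from edgeR's quasi-likelihood test. For SOX5, SOX6, SOX7, SOX8 and SOX13 the adjusted p ran from 0.104 to 1, which does not show that the lines responded alike.

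SOX2, the SOXB1 member, is a pluripotency factor also used by neural and squamous progenitors. In J82 it had 0 and 0 counts in the controls and 16 and 31 with CM-1758, and in TCCSUP 0 and 0 against 28 and 31. In RT112 the controls held 3 and 0 counts and the CM-1758 libraries 121 and 75. The controls of these 3 lines were at or near 0 and none overlapped with the treated libraries, which reached 0.573 to 1.05 CPM in J82, 1.05 to 1.22 in TCCSUP and 2.86 to 4.73 in RT112. SOX2 was at least 7.27-fold higher in J82 and at least 9.71-fold higher in TCCSUP when the controls were set to 3 counts per library, with adjusted p = 0.00103 and 0.000375. In RT112 the ratio was 75.8 with a 95% counting interval of 25.6 to 371 (adjusted p = 6.17e-05). The fitted log2 fold change in RT112 was 6.13, and it moved to 9.68 without RT112 control replicate 1 and to 5.21 without RT112 control replicate 2. In 253J, the line with the highest control level of SOX2, the controls held 9 and 24 counts and the treated libraries 38 and 26, and the log2 fold change of 0.93 (SE 0.62) did not pass (adjusted p = 0.233). In bulk RNA, a change in the number of cells that express SOX2 and a change in SOX2 transcript per cell cannot be told apart, here and for the other members. SOX2 lies inside SOX2-OT, a long noncoding gene on the same strand whose exons do not overlap those of SOX2, and SOX2-OT itself had too few reads for a test.

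The promoters of SOX2, SOX4, SOX6 and SOX12 are shown, the first 3 because these members were called in at least 2 lines and SOX12 for its many CpG dinucleotides, the sites of DNA methylation. They are the 250 bases before the transcription start, read 5′ to 3′ on the gene's strand from GRCh38.p14, a newer build than the one used for the counts. The positions are chr3:181711675-181711924 on the plus strand for SOX2, chr6:21593501-21593750 on the plus strand for SOX4, chr11:16738478-16738727 on the minus strand for SOX6, and chr20:325302-325551 on the plus strand for SOX12. Capitals mark each match, on either strand, to GGGCGG (the GC box bound by SP factors), CCAAT (bound by NF-Y) or TATAAA (the TATA box).
SOX2: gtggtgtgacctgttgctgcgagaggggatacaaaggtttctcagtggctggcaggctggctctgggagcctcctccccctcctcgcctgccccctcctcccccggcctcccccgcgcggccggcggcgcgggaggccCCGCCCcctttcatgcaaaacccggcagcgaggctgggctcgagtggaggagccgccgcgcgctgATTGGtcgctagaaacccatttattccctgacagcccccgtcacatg
SOX4: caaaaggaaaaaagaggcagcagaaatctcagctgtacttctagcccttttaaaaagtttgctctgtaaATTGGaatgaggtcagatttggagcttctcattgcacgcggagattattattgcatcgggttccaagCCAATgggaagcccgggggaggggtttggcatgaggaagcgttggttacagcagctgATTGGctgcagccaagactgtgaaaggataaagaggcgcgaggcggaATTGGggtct
SOX6: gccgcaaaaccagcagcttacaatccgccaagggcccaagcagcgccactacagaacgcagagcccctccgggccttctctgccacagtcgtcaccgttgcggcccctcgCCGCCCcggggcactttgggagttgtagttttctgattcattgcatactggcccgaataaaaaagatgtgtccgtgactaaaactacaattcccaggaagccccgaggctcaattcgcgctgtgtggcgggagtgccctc
SOX12: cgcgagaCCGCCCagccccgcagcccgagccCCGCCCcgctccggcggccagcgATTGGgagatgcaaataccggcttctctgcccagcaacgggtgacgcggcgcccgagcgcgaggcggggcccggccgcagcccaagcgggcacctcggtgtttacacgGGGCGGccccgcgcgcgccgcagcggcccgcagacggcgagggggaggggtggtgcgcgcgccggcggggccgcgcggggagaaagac

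Among these windows, that of SOX12 held 42 CpG dinucleotides, as many as or more than 99% of the 35116 human promoters in the table, and 3 GC boxes with 1 CCAAT match. SOX2 had 20 CpG (69.8% of promoters at or below), 1 GC box and 1 CCAAT match, and SOX6 had 17 CpG (63.2%) and 1 GC box. SOX4 had 8 CpG (45.9%), 0 GC boxes and 4 CCAAT matches. The windows of SOX5, with 27 CpG (84.1%), and SOX13, with 8 (45.9%), each held 1 GC box. TATAAA was in 0 of the 6 windows, and in 10.7% of all promoters, where GGGCGG was in 42.6% and CCAAT in 32%. The matches did not overlap each other. A match describes the letters only, and no match says only that those letters are not in the window.

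SOX4, a SOXC factor of progenitor cells that is abundant in many carcinomas, had the highest count of the 10 members in every library. In J82 it had 40.9 and 47.0 CPM in the controls and 162 and 244 with CM-1758, and in TCCSUP 212 and 208 against 675 and 605. The treated libraries of both lines lay well above the controls. SOX4 rose 4.62-fold in J82 (log2 fold change 2.21, SE 0.19, adjusted p = 4.65e-07) and 3.05-fold in TCCSUP (1.61, SE 0.18, adjusted p = 3.83e-06). In RT112 the values were 129 and 118 CPM against 151 and 145 (0.26, SE 0.18, adjusted p = 0.240), and in 253J 71.4 and 72.4 against 65.7 and 51.1 (-0.30, SE 0.18, adjusted p = 0.177). In those 2 lines the groups did not overlap either, but the difference did not pass the test. An antisense gene, AL512380.2, overlaps SOX4 exons, and its reads could be held apart only if counting used the strand of the libraries, which is not given in the sources used here.

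SOX11, a SOXC factor of neuronal differentiation, moved in opposite directions in 2 lines. In 253J it had 94 and 100 counts in the controls and 15 and 15 with CM-1758, with no overlap. It fell by 2.71 on the log2 scale (SE 0.48, adjusted p = 0.000389), from 3.62 ± 0.302 to 0.550 ± 0.0622 CPM (SD, n = 2). In TCCSUP the controls held 0 and 1 counts and the treated libraries 76 and 47, a ratio of 121 with a 95% counting interval of 21.4 to 4827 (adjusted p = 1.40e-05). The fitted log2 fold change there was 6.61, and it moved to 5.77 without TCCSUP control replicate 1 and to 9.0 without TCCSUP control replicate 2. J82 and RT112 had no library above 1 count in either group, so no fold is given. The noncoding gene AC108025.2 overlaps SOX11 exons on the same strand, and how reads in the shared stretch were counted is not given in the sources used here.

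SOX12, a weaker activator than the other SOXC members, rose in RT112, the line with its lowest control level. The RT112 controls had 1.27 and 1.12 CPM and the treated libraries 2.54 and 3.09, a 2.35-fold rise (log2 fold change 1.23, SE 0.29, adjusted p = 0.00293). In 253J, J82 and TCCSUP the treated libraries all lay below the controls, with log2 fold changes of -0.45, -0.58 and -0.47 that did not pass (adjusted p = 0.158, 0.0820 and 0.132). SOX12 was called lower in J82 without J82 control replicate 3 (-0.77, adjusted p = 0.0497) and in TCCSUP without TCCSUP CM-1758 replicate 2 (-0.81, adjusted p = 0.0416).

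**Figure D2:**
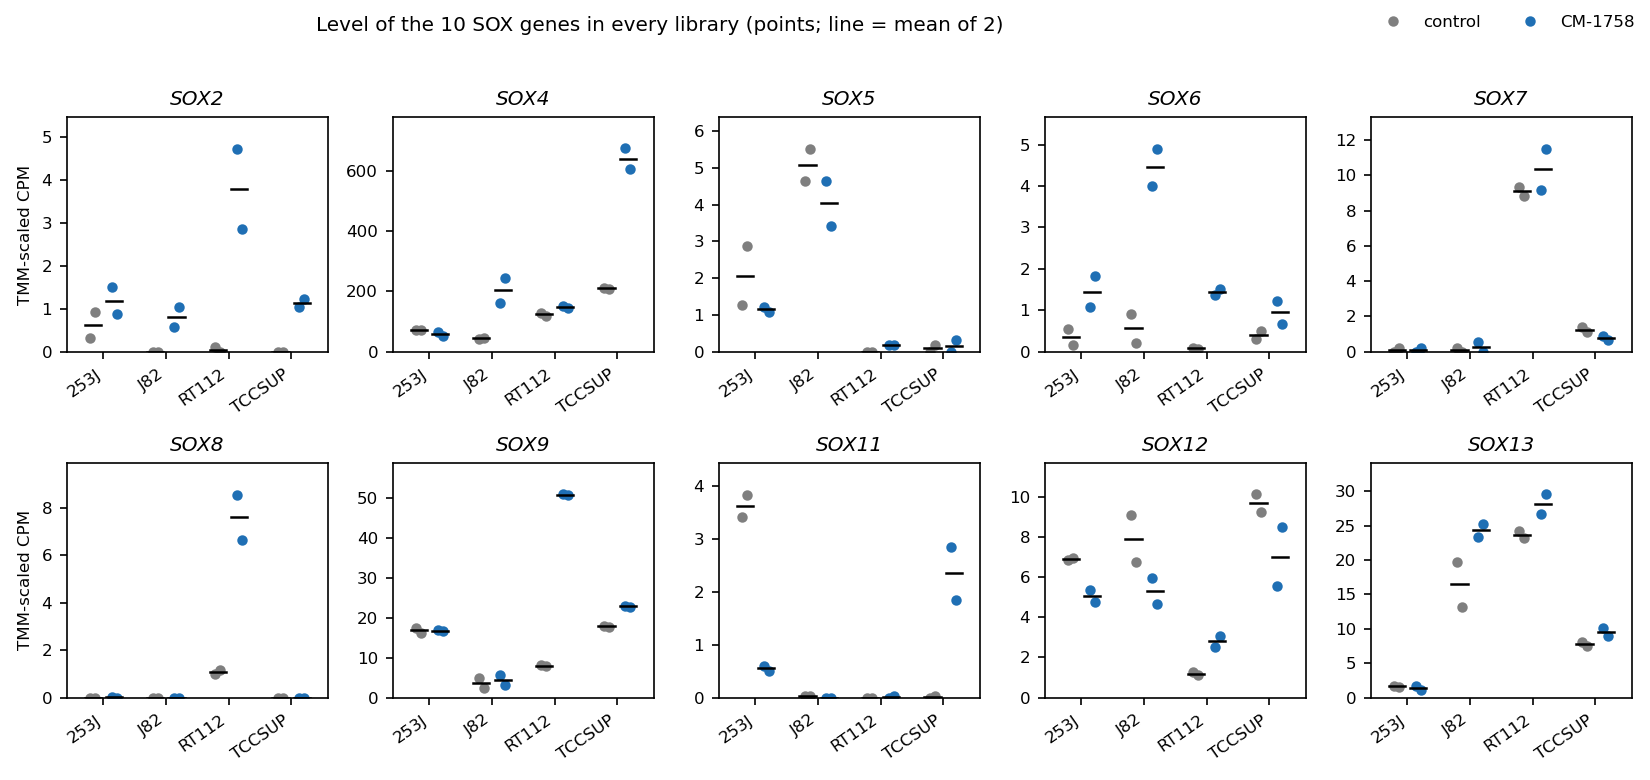
TMM-scaled CPM (y axis) of each of the 10 SOX members in the 16 libraries, 1 panel per gene, with a point per library and a line at the mean of the 2 libraries of each group. The treated libraries of SOX4 stand above the controls in J82 and TCCSUP, and those of SOX8 and SOX9 do so in RT112.

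SOX6, a SOXD factor that works with SOX5 and SOX9 in cartilage and also acts in red cell and muscle development, was called higher in 3 lines. In J82 the controls held 24 and 6 counts and the treated libraries 112 and 145, a 7.89-fold rise (log2 fold change 2.98, SE 0.58, adjusted p = 0.000723). The log2 fold change moved to 4.32 without J82 control replicate 1 and to 2.29 without J82 control replicate 3, and stayed called in both fits. In RT112 the controls held 3 and 2 counts and the treated libraries 35 and 40, a ratio of 17.4 with a 95% counting interval of 7.14 to 55.2 (adjusted p = 0.000556). The treated libraries lay above the controls in both. In 253J, 15 and 4 counts stood against 27 and 54 (2.03, SE 0.62, adjusted p = 0.0131), where the value moved to 3.21 without 253J control replicate 2 and the call was lost without 253J control replicate 3 (1.41, adjusted p = 0.124) and without 253J CM-1758 replicate 3 (1.59, adjusted p = 0.111). In TCCSUP, 8 and 13 counts stood against 33 and 17, with no overlap and no call (1.22, SE 0.64, adjusted p = 0.120). The difference between lines was not called for SOX6 (adjusted p = 0.117), so a larger response in one line than another was not shown. A microRNA gene, MIR6073, overlaps SOX6.

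SOX13, a SOXD factor known as an islet cell autoantigen, was called in J82 alone. J82 had 19.8 and 13.2 CPM in the controls and 23.4 and 25.3 with CM-1758, a 1.47-fold rise (log2 fold change 0.56, SE 0.19, adjusted p = 0.0286). This call was lost without J82 control replicate 3 (0.30, adjusted p = 0.271), without J82 CM-1758 replicate 3 (0.50, adjusted p = 0.125) and with each line fitted alone (0.58, adjusted p = 0.105). In the other lines its log2 fold changes were -0.21, 0.25 and 0.29 in 253J, RT112 and TCCSUP, with adjusted p of 0.240 to 0.557.

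SOX5, the SOXD partner of SOX6, was highest in J82, at 4.63 and 5.52 CPM in the controls and 4.65 and 3.42 with CM-1758, and neither there nor in 253J did it pass (log2 fold changes -0.33 and -0.84, adjusted p = 0.685 and 0.273). RT112 had 0 and 0 counts in the controls and 5 and 5 with CM-1758, which made SOX5 at least 1.93-fold higher (adjusted p = 0.0431). That call rests on 5 counts per treated library, and it was lost in 6 of the fits that left out 1 library, with an adjusted p up to 0.137, among them each fit without an RT112 library (0.0925 to 0.137). A pseudogene, SOX5P1, was at 0 throughout J82 and 253J, the lines with most of the SOX5 counts. It was at 0 in both RT112 controls and 21 and 23 in the treated libraries, and in TCCSUP 10 and 7 against 45 and 52. Whether reads were shared between SOX5 and SOX5P1 was not tested. TCCSUP had 0 and 5 SOX5 counts against 0 and 8, which overlapped.

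SOX9, the SOXE factor of cartilage, testis and epithelial progenitors, rose in RT112 from 8.07 and 7.89 CPM to 51.1 and 50.7. The 2 libraries of each group nearly coincided, and the 6.38-fold rise (log2 fold change 2.67, SE 0.26) had an adjusted p of 1.40e-06. In 253J, 17.6 and 16.2 CPM stood against 16.9 and 16.6, and the log2 fold change of -0.013 (SE 0.25) was within the spread between libraries. In J82, 4.82 and 2.33 stood against 5.58 and 3.08, which overlapped (0.28, SE 0.28, adjusted p = 0.470). In TCCSUP, 17.9 and 17.8 stood against 22.9 and 22.9, a change of 0.36 (SE 0.24) that did not pass (adjusted p = 0.234), though it passed with each line fitted alone (0.35, adjusted p = 0.0302). SOX9 lies inside SOX9-AS1 on the other strand, with no overlap of exons.

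SOX8, the other SOXE member, which supports SOX9 in gonad and neural crest development, was measured in RT112 and hardly elsewhere. Its RT112 controls had 0.98 and 1.15 CPM (30 and 34 counts) and its treated libraries 8.57 and 6.63 (219 and 174 counts), a 7.13-fold rise (log2 fold change 2.83, SE 0.45, adjusted p = 0.000560). All libraries of J82 and TCCSUP were at 0 counts, and 253J had 1 count in a single treated library, so no fold is given for those lines. The interaction test gave an adjusted p of 1, and at 0 counts in these lines a difference between lines was not detectable at this depth.

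SOX7, the SOXF member, had 9.35 and 8.84 CPM in the RT112 controls and 9.15 and 11.5 with CM-1758 (log2 fold change 0.18, SE 0.61, adjusted p = 0.854). TCCSUP had 1.38 and 1.11 CPM against 0.898 and 0.669 (-0.66, SE 0.78, adjusted p = 0.495), and 253J and J82 ranged from 0 to 16 counts with overlapping groups. No line passed the test, and SOX7 exons overlap those of PINX1 on the same strand, where the assignment of reads is likewise not given.

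The control levels of the members differed between lines for 9 of 10, against 78.8% of all tested genes. SOX6 was the exception in edgeR's test (adjusted p = 0.0521). Over the 6 pairs of lines, 40 of 60 differences between members were called, with 5 of 10 for 253J and J82, 9 for 253J and RT112, 6 for 253J and TCCSUP, 8 for J82 and RT112, 5 for J82 and TCCSUP and 7 for RT112 and TCCSUP. The shares of all tested genes for these pairs were 53.1%, 54.3%, 53.1%, 52.1%, 48% and 51.5%. Because the pairs share control libraries, the counts are not independent of each other.

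The order of the lines differed by gene. SOX4 ran TCCSUP, RT112, 253J, J82 from high to low, at 210 ± 2.90, 123 ± 8.23, 71.9 ± 0.777 and 44.0 ± 4.33 CPM (SD, n = 2), and SOX13 ran RT112, J82, TCCSUP, 253J, at 23.7 ± 0.763, 16.5 ± 4.64, 7.81 ± 0.374 and 1.65 ± 0.0658 CPM. For these 2 genes all 6 pairs were called. SOX9 was highest in TCCSUP and 253J, which did not differ beyond their spread (adjusted p = 0.847), then RT112, then J82. SOX12 was lower in RT112 than in each other line, and those other lines were not called different from each other.

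SOX2 and SOX11 were highest in 253J, and J82, RT112 and TCCSUP, with 0 to 3 counts, were not called different for either gene. SOX5 was highest in J82 and 253J, whose difference did not pass (adjusted p = 0.0712), above RT112 and TCCSUP. SOX7 was highest in RT112, then TCCSUP, then 253J and J82 without a called difference, and SOX8 was above the other lines in RT112 alone. SOX6 was lowest in RT112, where the differences from J82 and TCCSUP were called (adjusted p = 0.0139 and 0.0453).

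Levels are compared between genes only as CPM per kilobase of exon, with exon lengths from an annotation of GRCh38, which is not the build of the counts. SOX4 was the highest member in every group, at 7.51 to 35.9 CPM per kilobase in the controls. Its share of the summed CPM per kilobase of the 10 members was 62.9 to 63.0% in 253J controls and 57.8 to 62.0% with CM-1758. It moved from 42.5 to 55.4% up to 72.3 to 80.3% in J82 and from 79.3 to 79.7% up to 90.3 to 91.3% in TCCSUP, where SOX4 rose. In RT112 it moved down, from 62.9 to 64.1% to 46.2 to 47.3%, while SOX9 went from 2.03 to 12.9 CPM per kilobase, SOX8 from 0.350 to 2.49 and SOX2 from 0.0195 to 1.51. These shares are descriptions, with no test.

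**Figure D3:**
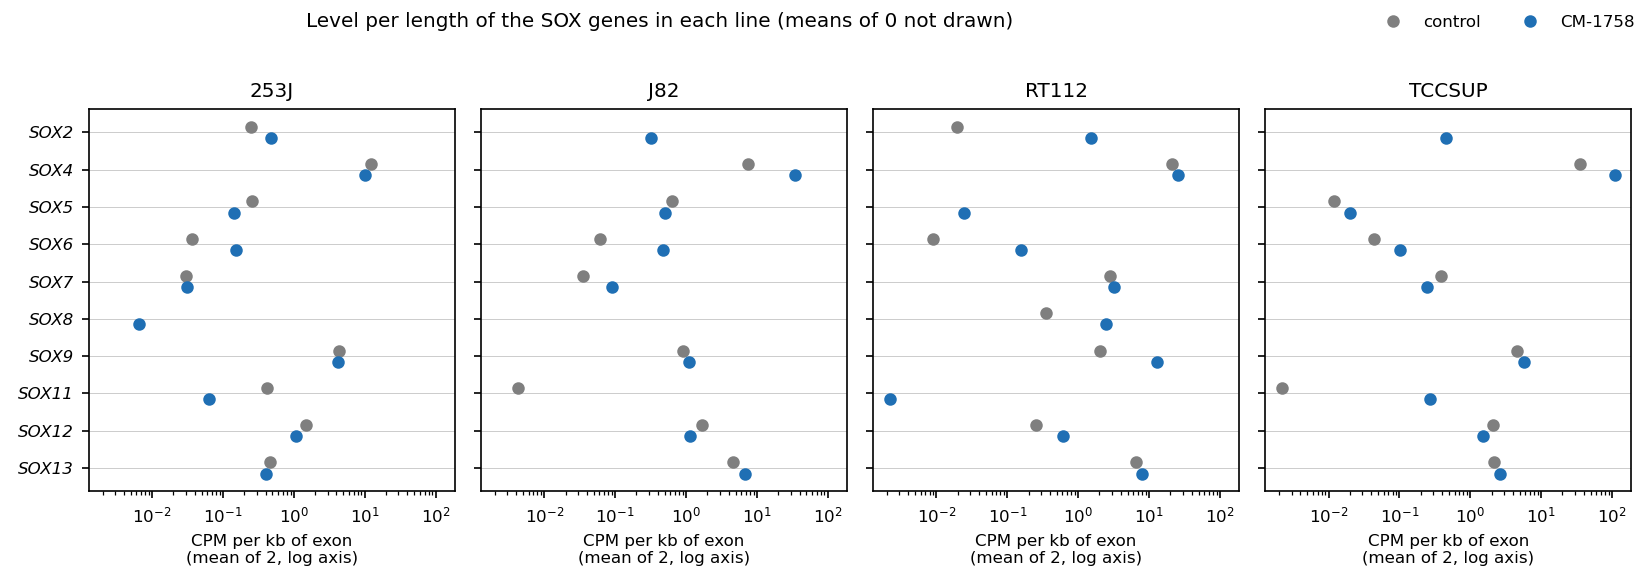
Mean CPM per kilobase of exon (log axis) of the 10 SOX members, control and CM-1758, in each of the 4 lines, where each point is the mean of 2 libraries and means of 0 are not drawn. SOX4 is the highest point in every group, from 7.51 to 109 CPM per kilobase.

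The genes whose log2 CPM ran most like those of SOX2, SOX4 and SOX9 over the 16 libraries are given as a description, since these libraries share line and treatment. For SOX2 they were RIMS3 (Pearson r = 0.975), a synaptic vesicle release regulator, VWA5B2 (0.973) and ATP12A (0.965), a proton pump subunit. RIMS3 had 3.13 CPM in the RT112 controls and 26.2 with CM-1758, and 9.85 and 15.1 in 253J. For SOX4 they were FLJ37201 (0.934), DRAXIN (0.930), an axon guidance factor, and CLCN4 (0.920), a chloride and proton exchanger. For SOX9 they were C3orf52 (0.957), FBXO11 (0.944), a ubiquitin ligase component, and MAPK11 (0.930), a p38 kinase.

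Lists of related genes are given next, and each count is to be read against the share of all tested genes called higher (32% in TCCSUP, 28.8% in 253J, 27.4% in RT112, 24% in J82) or lower (22.1%, 22.4%, 20.2% and 18.5%). Of 9 other SOX genes only 4 had enough reads for a test, and SOX1, SOX3, SOX10, SOX17 and SOX30 did not. Among the 4, 1 was called higher and 1 lower in RT112, 2 were called higher in TCCSUP and 0 were called in 253J or J82. SOX21, a SOXB2 repressor, fell in RT112 from 352 and 354 counts to 48 and 51 (log2 fold change -2.62, SE 0.53, adjusted p = 0.00137). In TCCSUP it was at 0 and 0 counts against 10 and 0 (adjusted p = 0.0382). That call rests on 1 treated library, the groups overlapped, and no fold is given. SOX14, the other SOXB2 gene, was at 0 in the controls and at 5 and 9 counts in RT112 and 2 and 11 in TCCSUP with CM-1758 (means at least 2.7-fold and 2.17-fold higher, adjusted p = 0.0341 and 0.0409). Both SOX14 calls rest on these few counts.

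Of 4 noncoding neighbours, 2 had enough reads. SOX9-AS1, antisense to SOX9, rose in RT112 (0 and 3 counts against 56 and 44, ratio 38.7 with a 95% counting interval of 12.9 to 191, adjusted p = 0.000149), the line in which SOX9 rose. It also rose in TCCSUP, from 6 and 7 to 74 and 83 counts (log2 fold change 3.55, SE 0.64, adjusted p = 0.000363), where SOX9 did not pass. SOX21-AS1 fell in RT112 from 495 and 416 to 89 and 88 counts (-2.15, SE 0.33, adjusted p = 0.000300), as SOX21 did, and was at least 3.11-fold higher in J82 and 2.77-fold in TCCSUP against controls at 0.

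The cartilage genes bound by SOX9 with SOX5 and SOX6 were called higher for 9 of 12 in RT112, with 0 lower, where 27.4% of all tested genes were higher. In TCCSUP 6 rose and 1 fell, in 253J 5 rose and 0 fell, and in J82 3 rose and 1 fell, against 32%, 28.8% and 24% of all genes called higher. The J82 count was near that share. The medians of the list were 3.30, 2.74, 5.36 and 4.02 on the log2 scale in 253J, J82, RT112 and TCCSUP, and 1.07, 0.61, 1.75 and 1.74 with genes at the floor set to their bound. Genes with a group at the floor of 3 counts numbered 8, 7, 8 and 5 of the 12 in the same order. COMP, a cartilage matrix protein, was at 0 in the controls and at least 4.49-fold higher in J82, at least 6.24-fold in TCCSUP and at least 43.7-fold in RT112, and ACAN, the cartilage proteoglycan aggrecan, was at least 3.67-fold higher in RT112 and 3.87-fold in 253J. In TCCSUP, ACAN went from 0.0957 to 2.82 CPM (29.5-fold, adjusted p = 0.00114). SOX9 itself was called in RT112 alone.

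Of 11 tested SOX2 partners and stem cell genes, 9 rose in RT112, 7 in TCCSUP, 5 in J82 and 4 in 253J, and 1 fell in TCCSUP and 1 in 253J. The shares of all genes called higher were 27.4%, 32%, 24% and 28.8% in the same order, and the 253J count was near its share. PROM1, which encodes the surface protein CD133, was at least 33.9-fold higher in 253J and at least 2.29-fold in J82, and POU3F3, a POU factor that partners SOX2 in neural cells, was at least 18.8-fold higher in J82. Both genes were called higher in all 4 lines. The genes that fell were POU5F1 in 253J, from 7.06 to 1.30 CPM (log2 fold change -2.43), and SALL4 in TCCSUP, from 34.5 to 17.7 CPM (-0.97). SALL4 rose in J82 (2.73) and RT112 (4.46). Of 6 tested neuronal genes linked to SOX4 and SOX11, 5 rose in J82, RT112 and TCCSUP and 3 in 253J, with 1 lower in TCCSUP and 1 in 253J, against 24%, 27.4%, 32% and 28.8% of all genes called higher in J82, RT112, TCCSUP and 253J. Of these 6, 2, 3, 3 and 1 had a group at 3 counts or fewer in the same order. At the bound, the median went from 4.60 to 1.80 in RT112 and from 3.60 to 1.25 in TCCSUP, and did not move in J82 or 253J. MAP2, a neuronal microtubule protein, rose in all 4 lines (log2 fold changes 1.95, 3.05, 4.28 and 1.29 in 253J, J82, RT112 and TCCSUP), and STMN2, a growth cone protein, was at least 39.6-fold higher in 253J and 42.2-fold in J82. TEAD2 was the gene called lower in 253J (-2.12) and in TCCSUP (-2.46), and it rose in J82 (3.58) and RT112 (2.15). Among 7 other HMG-box factors, 4 rose and 1 fell in RT112, 3 rose in J82, 1 rose and 2 fell in 253J, and 2 rose and 2 fell in TCCSUP, and the 253J and TCCSUP counts were near the shares of all genes (28.8% higher and 22.4% lower, and 32% and 22.1%). TCF7, a Wnt effector, rose in RT112 (3.33) and J82 (1.97) and fell by 1.37 on the log2 scale in TCCSUP.

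**Figure D4:**
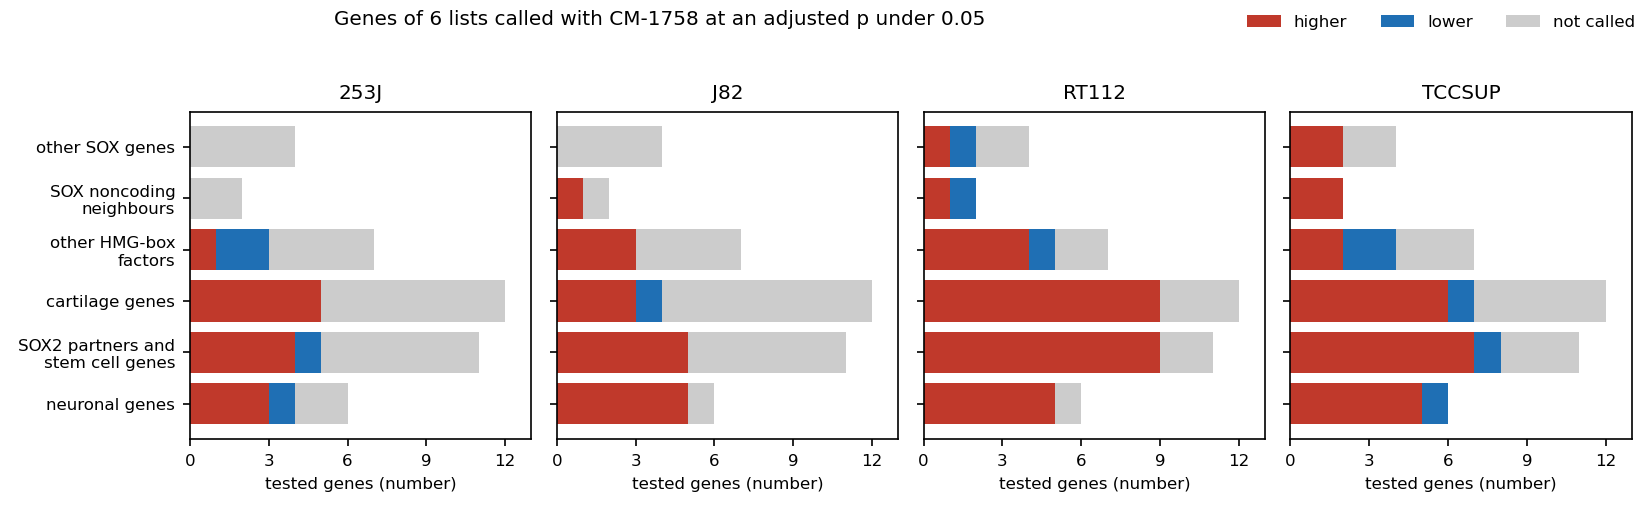
Number of tested genes called higher, lower or not called with CM-1758 (x axis) for 6 lists of genes related to the SOX factors (y axis), in each of the 4 lines. The cartilage list shows 9 of 12 genes higher in RT112 and 3 of 12 in J82.

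Markers of bladder epithelium and of other cell types moved in the same libraries. Of 16 urothelial and epithelial markers, 2 rose and 5 fell in RT112, 6 rose and 1 fell in J82, 5 rose and 6 fell in TCCSUP and 4 rose and 4 fell in 253J. The number higher in TCCSUP and both numbers in 253J were near the shares of all genes (32% higher in TCCSUP, 28.8% higher and 22.4% lower in 253J). Their summed level went from 8241 to 8641 CPM down to 6306 to 7084 in RT112, and from 1339 to 1460 down to 519 to 602 in TCCSUP. In J82 the sums were 5968 to 8100 and 6970 to 7890 CPM, and in 253J 3191 to 4342 and 1879 to 2371. Of 5 tested immune and endothelial markers, 1 rose in each line and 1 fell in TCCSUP, where PTPRC, a leukocyte surface phosphatase, went from 9.58 to 1.12 CPM. These counts did not exceed the shares of all genes, 24% to 32% higher by line and 22.1% lower in TCCSUP. The summed level of this list went from 0.362 to 0.498 CPM up to 2.42 to 3.27 in 253J, from 4.11 to 5.62 up to 7.37 to 7.68 in J82 and from 4.74 to 4.93 up to 6.75 to 8.53 in RT112, and in TCCSUP from 21.7 to 22.0 down to 13.8 to 14.0. The part of these markers in the SOX changes was not tested.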

How the data were processed

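Cells of each line were treated for 48 h, and total RNA was sequenced as stranded, ribosomal RNA-depleted libraries. The deposited table holds raw counts per gene symbol for the 16 libraries, made by the authors. The submitters' processing notes name HISAT2, StringTie and GRCh37, but the counting tool and its strand setting are not given in the sources used here. Genes were kept by filterByExpr over the 8 groups, counts were scaled by TMM, and all libraries were fitted with 1 mean per group in edgeR 4.0.16 (R 4.3.3) by the quasi-likelihood test, with 8 residual degrees of freedom. The p-values were Benjamini-Hochberg adjusted over 21297 genes and called under 0.05. The study used DESeq2, here an alternative (version 1.42.0), with other scaling, filters, thresholds, each line alone, a replicate block and each library left out. The SE of a log2 fold change was taken from its size and the F statistic (size over root F). Fold bounds set a control at 0 to 3 counts per library, and counting intervals are exact binomial at 95%, covering counting error only. The fit was first tested on simulated data. It recovered 26 of 50 changes of 2-fold, 48 of 50 of 4-fold and 97 of 100 of 8-fold, with 10 false calls over all lines. A 2-fold change could therefore often be missed. No replicate pair was alike within sampling noise (chi-square per degree of freedom 11.7 to 73.1). The p-values rest on the spread between replicate cultures of a line, estimated over all 8 groups together. By that chi-square, replicates differed most in J82 (73.1 in control and 49.2 with CM-1758) and least in TCCSUP (11.7 and 12.8). The members and lists were chosen with earlier results of these data known, and the named genes were the members, called genes of the SOX lists, and the 2 tested genes of each other list with the largest mean absolute change among those of at least 1 CPM in some group and called in at least 2 lines. The 3 genes with the highest correlation with SOX2, SOX4 and SOX9 were named too. UPK2 and UPK3A, outside the rule, were chosen after their values were seen, as a check of the tissue label. TEAD2, POU5F1, SALL4, HAPLN1 and COL9A2, also outside the rule, were named because they were called lower in a line. Promoter letters are from RefSeq. SOX8, SOX9 and SOX11 had no entry and SOX7 was left out, so the windows of 6 of 10 members were read.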

Additional observations from a re-analysis of the deposited data

Results flagged for a closer look

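The change with CM-1758 differed between the 4 lines for 5 SOX members by the interaction test (edgeR's quasi-likelihood F test, Benjamini-Hochberg adjusted). For SOX2 the adjusted p was 0.00241, with 0.93 on the log2 scale in 253J, which did not pass, at least 7.27-fold higher values in J82 and at least 9.71-fold in TCCSUP, and a ratio of 75.8 in RT112 with a 95% counting interval of 25.6 to 371. For SOX4 it was 4.57e-06, with 2.21 in J82 and 1.61 in TCCSUP beside -0.30 in 253J and 0.26 in RT112. For SOX9 it was 6.35e-05, with 2.67 in RT112 beside -0.013 to 0.36 in the other lines. For SOX11 it was 2.41e-05, with a fall by 2.71 in 253J and a ratio of 121 in TCCSUP. For SOX12 it was 0.00358, with 1.23 in RT112 beside -0.45, -0.58 and -0.47 in 253J, J82 and TCCSUP. Such a difference was called for 51.9% of all tested genes.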

How the results depend on the processing

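Of 245 counts compared, 238 stayed within 1.5 times the reported count. Members higher in 253J were 0 without 253J control replicate 3, 0 without 253J CM-1758 replicate 3 (range over left-out libraries 0 to 1) and 0 with the larger threshold. Members higher in TCCSUP were 5 with library size alone, where SOX9 (0.67, adjusted p = 0.0379) and SOX13 (0.60, adjusted p = 0.0222) were added. Members lower in J82 and in TCCSUP each ranged from 0 to 1 over left-out libraries. Library size alone moved the median of all genes by 0.27, 0.14, 0.15 and 0.31 on the log2 scale in 253J, J82, RT112 and TCCSUP.

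The main fit used the replicate numbers only to name the samples. Differences of same-numbered libraries correlated at 0.218, 0.043 and 0.017 in J82, RT112 and TCCSUP, and 253J shared only number 3. Whether same-numbered cultures were paired cannot be told from these values. With the replicate block (3 residual degrees of freedom), 2 members were lower in 253J, where SOX4 was added (-0.50, adjusted p = 0.0367), SOX9 in TCCSUP was called (0.36, adjusted p = 0.0373), SOX6 in 253J moved from 2.03 to 3.53, and SOX2 in 253J changed sign to -0.067. The block could not be fitted for control levels.

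None of the 15 called values changed sign in 359 comparisons. Among values that did not pass, SOX9 in 253J became 0.031 with RLE scaling and with DESeq2, 0.26 with library size alone, 0.00084 with a filter of 10 counts in 4 libraries and 0.039 with the block, and SOX13 in 253J became 0.062 with library size alone. Over left-out libraries SOX5 in TCCSUP ranged from -4.47 to 5.11, SOX7 from -4.41 to 4.62 in 253J and from -4.61 to 5.96 in J82, SOX9 from -0.077 to 0.050 in 253J and from -0.16 to 0.89 in J82, and SOX13 in 253J from -0.53 to 0.072. SOX9 in J82 was called without J82 control replicate 1 (0.89, adjusted p = 0.0235).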

Other observations

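The marker KRT20, a keratin of the differentiated bladder surface, was called higher with CM-1758 in all 4 lines. KRT20 was at 0 in the controls of 253J and TCCSUP and at least 84.5-fold and 33.3-fold higher with treatment, and in RT112 it rose by a log2 fold change of 1.41. In J82 it went from 0 to 0.264 CPM, at least 2.36-fold. The 16 markers of its list did not move as 1: 2 rose and 5 fell in RT112, 6 and 1 in J82, 5 and 6 in TCCSUP and 4 and 4 in 253J. The shares of all genes are given above. UPK1A, a uroplakin, fell by 4.30 on the log2 scale in RT112 and was at least 4.99-fold higher in 253J. LEF1, a Wnt effector with an HMG box, fell by 1.55 on the log2 scale in 253J, rose in J82 (1.40), was at least 5.6-fold higher in RT112 and had a ratio of 24.2 in TCCSUP with a 95% counting interval of 6.34 to 205. VWF, an endothelial marker, rose in 253J (3.47) and TCCSUP (2.17).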
